A study of Mus musculus with 18 samples.

Results

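The genes described here form the growth hormone and STAT5 axis of the liver. They were chosen by name, with earlier results of these data known, and all 10 were found once each among the 54838 genes of the table. They are the receptor Ghr, the circulating growth factor Igf1 and its carrier subunit Igfals, the feedback inhibitors Socs2 and Cish, the transcriptional repressors Bcl6 and Cux2, and the male-biased target genes Hsd3b5, Cyp2d9 and Elovl3.

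RNA-seq values were available for 18 samples in 6 groups of 3, all of C57BL/6 mice aged 36 weeks. The groups cross genotype with tissue. Wild type (WT) mice and global miR-181ab1 knockout (GKO) mice, in which this microRNA cluster is deleted in every cell, gave normal livers, non-tumour livers and liver tumours. Normal livers came from untreated mice, while tumours and non-tumour livers came from mice injected with diethylnitrosamine (DEN), a carcinogen activated in hepatocytes, at 25 mg/kg on postnatal day 12. DEN was given to male pups, and knockout mice were compared with wild type littermates. Tumours and non-tumour livers are not tied to individual mice in the labels, and p-values measure the spread between the 3 samples of a group. In bulk tissue, fewer cells of a type and less RNA per cell cannot be told apart.

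Growth hormone is released by the pituitary in pulses in male rodents and more evenly in females. Binding to its receptor on hepatocytes activates the kinase JAK2, which phosphorylates STAT5A and STAT5B, and these enter the nucleus and bind DNA at the sequence TTCNNNGAA. STAT5 drives Igf1 and Igfals, whose proteins circulate together, and Socs2 and Cish, whose proteins restrain the signal. The same signal sets the sex bias of the liver, in which Bcl6 is the more abundant repressor in males and Cux2 is female-specific.

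Each sample had 11925055 to 20751348 reads on genes (median 16973801), as recovered from TPM (reads of a gene per unit of its length, scaled to 1000000 per sample). The deleted microRNAs could not serve as a check of the genotype, since Mir181b-1 had 0 reads in all 18 samples and Mir181a-1 had 1 read, in a library labelled GKO tumours. WT tumours 1 and 2 were the most alike pair of samples within a group (Pearson's r = 0.982 across 13914 genes, against 0.919 to 0.979 for the other 17 pairs). Hepatocyte markers, Alb and Apoa1 among them, were abundant in all groups, and 9 of the 10 markers were found. Their summed level was 75964 to 109658 TPM in non-tumour livers and 202945 to 238144 TPM in tumours.

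The start sites of the axis genes show where its binding sequence occurs. RefSeq promoter windows on GRCm38.p6, from 250 bases before to 50 after a start site, were found for 8 of the 10 genes (13 windows), and Socs2 and Elovl3 had no entry. The motif TTCNNNGAA, which reads the same on both strands, occurred in 5 of these windows, those of Cish, Bcl6 and Igfals, and in 8.3% of all 32851 windows. The 5 stretches that hold it are given 5′ to 3′ on the strand of the gene, with the motif in capitals.
Cish, chr9:107296629-107296708, + strand: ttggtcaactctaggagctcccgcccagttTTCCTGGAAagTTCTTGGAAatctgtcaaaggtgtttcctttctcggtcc
Bcl6, chr16:23981333-23981481, - strand: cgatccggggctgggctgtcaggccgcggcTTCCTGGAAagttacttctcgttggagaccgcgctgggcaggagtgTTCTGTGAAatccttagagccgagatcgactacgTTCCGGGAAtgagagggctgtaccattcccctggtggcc
Bcl6, chr16:23988932-23989000, - strand: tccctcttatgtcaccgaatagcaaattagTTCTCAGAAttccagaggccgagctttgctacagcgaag
Igfals, chr17:24877594-24877646, + strand: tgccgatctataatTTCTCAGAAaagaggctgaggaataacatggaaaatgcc
Igfals, chr17:24878143-24878211, + strand: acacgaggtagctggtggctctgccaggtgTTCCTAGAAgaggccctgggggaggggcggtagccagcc
Cish held 2 motifs that do not overlap, beginning at bases 1 and 12 of its transcript. Bcl6 held 3 in one window, 168, 122 and 88 bases before the start site, and 1 in another, 118 bases before it. In Igfals the motif lay 236 bases before one start site and 58 bases before another. The windows of Ghr, Igf1, Cux2, Hsd3b5 and Cyp2d9 did not hold these letters. That of Hsd3b5 (chr3:98645485-98645784) lies outside the gene position used for its values (chr3:98618634-98630252). That of Cyp2d9 (chr15:82452127-82452426) lies inside its gene position (chr15:82433437-82456845). Start sites outside the windows were not read. A match describes the letters of the window only, and binding was not measured.

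Ghr, the receptor at the head of the axis (ENSMUSG00000055737, chr15:3317760-3583492), was lower in tumours than in livers of either genotype. In replicates 1, 2 and 3, in that order here and below, it was at 83.2, 58.1 and 83.4 TPM in WT non-tumours and at 24.7, 18.05 and 40.6 TPM in WT tumours. GKO non-tumours had 64.5, 51.5 and 58.3 TPM and GKO tumours 26.4, 21.4 and 39.6 TPM. The tumours of each genotype did not overlap with its non-tumour livers. The log2 fold change on the scale of TPM + 1 was -1.46 ± 0.34 (SE) in WT mice and -1.01 ± 0.27 in GKO mice, and neither passed the test (limma with Benjamini-Hochberg adjustment over all genes, adjusted p = 0.0678 and 0.0545). Normal livers were at 43.0 to 65.7 TPM in WT mice and 57.3 to 60.3 TPM in GKO mice. In the order of the 6 group means, WT normal livers and GKO tumours were the only neighbours whose ranges did not overlap.

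Igf1, the hormone that carries growth hormone's signal to other tissues (ENSMUSG00000020053, chr10:87858265-87937042), fell in tumours of both genotypes. It was at 107, 63.2 and 115 TPM in WT non-tumours and at 3.22, 3.15 and 21.2 TPM in WT tumours. This log2 fold change of -3.67 ± 0.67 passed the test (adjusted p = 0.033). In GKO mice it was at 146, 176 and 188 TPM in non-tumours and at 29.4, 32.9 and 86.0 TPM in tumours (-1.92 ± 0.41, adjusted p = 0.029). The mean of Igf1 was 9.17 ± 10.4 TPM (SD, n = 3) in WT tumours and 49.4 ± 31.7 TPM in GKO tumours. The 2 tumour groups did not overlap, and the difference of 2.62 ± 0.73 on the log2 scale did not pass the test (adjusted p = 0.416). This difference passed in 2 of 14 alternatives. Leaving out WT tumour 3 kept only WT tumours 1 and 2, the most alike pair, and gave 3.42 (adjusted p = 0.0411). A single fit to the 18 samples gave an adjusted p of 0.0297. Over all genes, 147 and 107 were called in these alternatives, against 3. The difference did not pass in the other 12. It was 2.22 without WT tumour 1 (adjusted p = 0.987) and 2.21 without WT tumour 2 (0.901). With that pair averaged it was 2.22 (0.979).

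**Figure D1:**
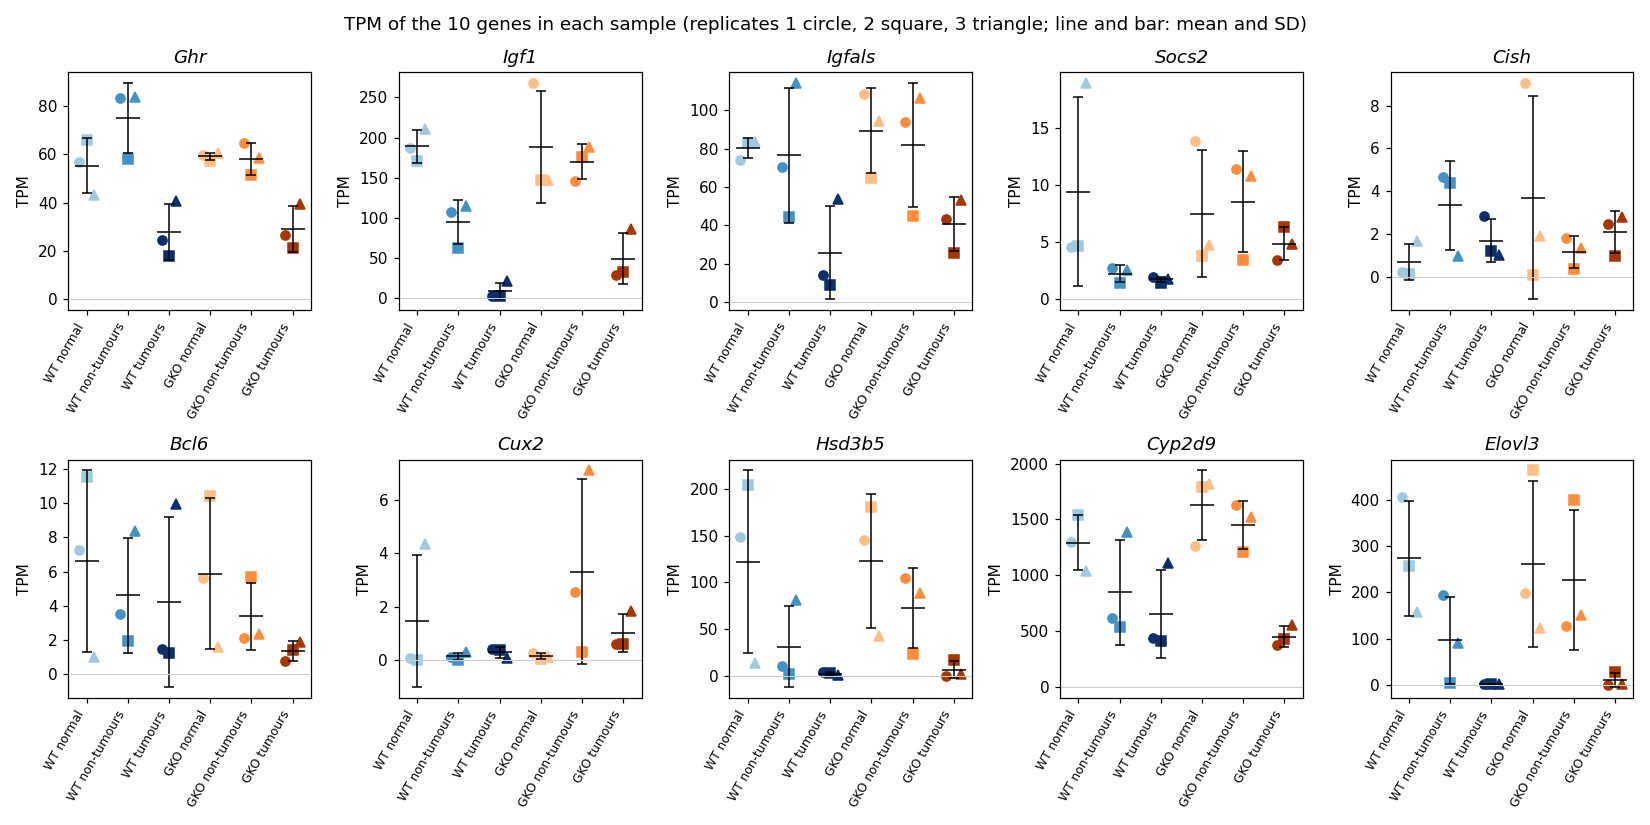
TPM of each of the 10 genes (vertical axis, linear) in the 6 groups (horizontal axis), with 1 point per sample, shaped by replicate number, and a line and bar for the mean and SD of 3 samples. Igf1 lies between 3.15 and 21.2 TPM in WT tumours, under every other group, and Elovl3 lies at 27.0 TPM or less in all 6 tumours.

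Igf1 was also read between the livers without tumour tissue. WT normal livers had 187, 170.4 and 211 TPM, all above the WT non-tumours, and the difference of -1.03 ± 0.27 on the log2 scale did not pass the test (adjusted p = 0.124). GKO non-tumours were all above WT non-tumours, by 0.87 ± 0.29 (adjusted p = 0.643). GKO normal livers, at 268, 148 and 147 TPM, overlapped with both GKO non-tumours and WT normal livers. In the order of the group means, Igf1 ran from WT normal livers through GKO normal livers, GKO non-tumours, WT non-tumours and GKO tumours to WT tumours. The neighbours that did not overlap were GKO and WT non-tumours, and GKO and WT tumours.

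Igfals, which holds IGF1 in a long-lived complex in plasma (ENSMUSG00000046070, chr17:24865997-24882010), had its lowest group mean in WT tumours. It was at 14.4, 9.23 and 53.5 TPM there, at 70.6, 44.5 and 114 TPM in WT non-tumours, and at 43.3, 25.6 and 53.4 TPM in GKO tumours. These ranges overlapped, as did those of every pair of neighbours in the order of the group means. WT tumour 3 held the highest Igfals, Igf1, Ghr, Bcl6 and Cyp2d9 of its group.

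The binding proteins and receptors of the insulin-like growth factors were read beside them, in a list of 7 genes of which 6 were tested in either tumour comparison. Igfbp1, a binding protein induced when insulin is low, rose in WT tumours, from 13.3, 39.7 and 36.8 TPM in non-tumours to 2590, 2328 and 3716 TPM (log2 fold change 6.65 ± 0.45, adjusted p = 0.00149). Igfbp3, the main plasma carrier of IGF1, rose in GKO tumours, from 21.9, 10.4 and 6.90 TPM to 42.3, 52.7 and 39.2 TPM (1.83 ± 0.39, adjusted p = 0.0287). None of the others passed in these comparisons. The median of the list was -0.04 in WT mice and 0.39 in GKO mice, against -0.02 and 0.20 over all genes tested.

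Socs2, a ubiquitin ligase subunit that promotes turnover of the receptor (ENSMUSG00000020027, chr10:95385362-95417180), was lower in the WT mice given DEN than in the other groups. WT non-tumours had 2.75, 1.45 and 2.61 TPM and WT tumours 1.95, 1.47 and 1.83 TPM. GKO non-tumours had 11.4, 3.44 and 10.8 TPM and GKO tumours 3.42, 6.36 and 4.88 TPM. Each of these GKO samples was above each of the 6 WT samples from mice given DEN. The log2 difference between genotypes was 1.07 ± 0.25 in tumours and 1.43 ± 0.42 in non-tumours, and neither passed the test (adjusted p = 0.369 and 0.643).

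In normal livers, Socs2 was at 4.605, 4.69 and 19.0 TPM in WT mice and 13.9, 3.83 and 4.81 TPM in GKO mice, so the genotypes overlapped. WT non-tumours were all under the WT normal livers, with a log2 fold change of -1.42 ± 0.50 that did not pass the test (adjusted p = 0.165). WT tumours and WT non-tumours overlapped. In the order of the group means, GKO tumours and WT non-tumours were the only neighbours that did not overlap. Socs2 had at least 113 reads in every sample, so depth did not limit these values.

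Cish, the other feedback inhibitor and the carrier of 2 motifs at its start site (ENSMUSG00000032578, chr9:107296026-107302784), varied widely within groups. It was at 0.252, 0.158 and 1.67 TPM in WT normal livers and at 9.07, 0.0966 and 1.92 TPM in GKO normal livers. WT non-tumours had 4.66, 4.39 and 0.968 TPM, and GKO non-tumours 1.81, 0.358 and 1.37 TPM. The tumours lay between 0.971 and 2.85 TPM in both genotypes. All neighbours in the order of the group means overlapped, and the reads per sample ranged from 5 to 476.

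The repressors showed a mixed picture. Bcl6 (ENSMUSG00000022508, chr16:23965052-23988852) was at 7.28, 11.6 and 1.00 TPM in WT normal livers, at 3.52, 1.90 and 8.40 TPM in WT non-tumours and at 1.46, 1.199 and 9.98 TPM in WT tumours. GKO normal livers had 5.61, 10.4 and 1.58 TPM, GKO non-tumours 2.12, 5.66 and 2.35 TPM, and GKO tumours 0.743, 1.41 and 1.87 TPM. GKO tumours were all under GKO non-tumours, with a log2 fold change of -0.84 ± 0.34 that did not pass the test (adjusted p = 0.142). In WT mice, the tumours covered the whole range of the non-tumour livers.

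Cux2 (ENSMUSG00000042589, chr5:121856366-122050102) was at 0.623 TPM or less in 14 of the 18 samples. It was higher in WT normal liver 3 (4.33 TPM), in GKO non-tumours 1 and 3 (2.55 and 7.10 TPM) and in GKO tumour 3 (1.85 TPM). GKO non-tumours, at 2.55, 0.317 and 7.10 TPM, did not overlap with WT non-tumours, at 0.133, 0.0121 and 0.296 TPM (log2 difference 1.56 ± 0.60, adjusted p = 0.643). They did not overlap with GKO normal livers either, at 0.279, 0.0615 and 0.128 TPM (1.54 ± 0.57, adjusted p = 0.952). In tumours, GKO samples had 0.623, 0.594 and 1.85 TPM and WT samples 0.432, 0.374 and 0.0787 TPM, again without overlap (0.60 ± 0.29, adjusted p = 0.598). Reads ran from 0 in WT normal liver 2 to 577 in GKO non-tumour 3, and Cux2 was left untested between WT tumours and their non-tumour livers because its mean was under 0.5 TPM.

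**Figure D2:**
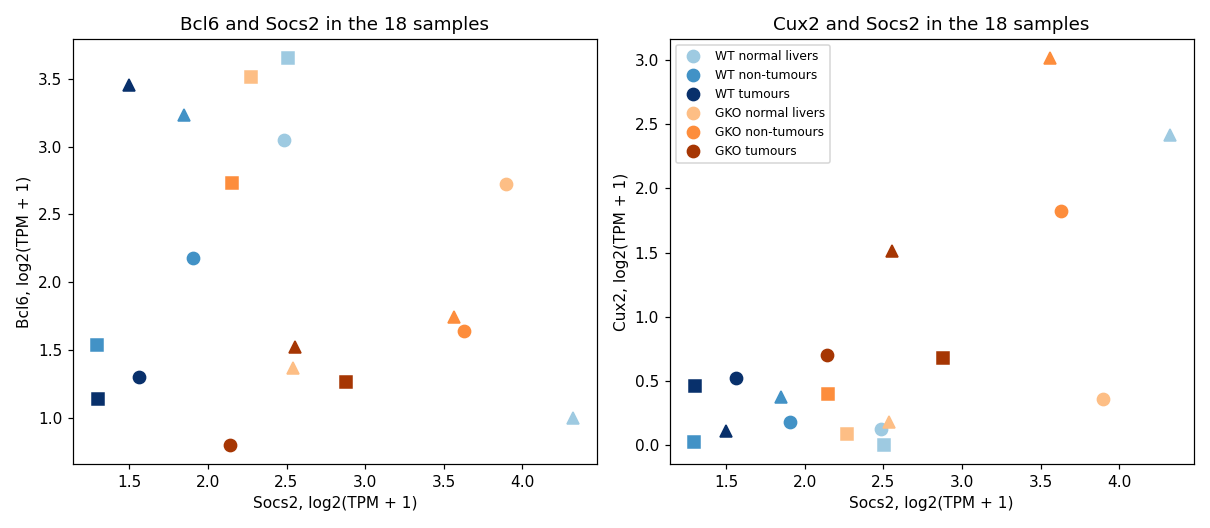
Bcl6 (left) and Cux2 (right) against Socs2, each as log2(TPM + 1), with 1 point per sample coloured by group and shaped by replicate number. WT normal liver 3 and GKO non-tumours 1 and 3 hold the highest Cux2, and their Bcl6 is at 1.00, 2.12 and 2.35 TPM. GKO normal liver 1 has the second highest Socs2, 13.9 TPM, with Bcl6 at 5.61 TPM and Cux2 at 0.279 TPM.

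Which sample of a group was high differed from gene to gene in the livers without tumour tissue. WT normal liver 3 had the highest Socs2, Cish, Cux2, Igf1 and Igfals of its group and the lowest Bcl6, Hsd3b5, Cyp2d9, Elovl3 and Ghr. GKO normal liver 1 had the highest Socs2, Cish, Cux2, Igf1 and Igfals of its group and the lowest Cyp2d9. In both non-tumour groups, Socs2 and Cish were highest in replicate 1 and Igf1, Igfals and Cux2 in replicate 3. Over the 12 livers without tumour tissue, Pearson's r of log2(TPM + 1) was 0.73 between Socs2 and Cux2, 0.78 between Socs2 and Igf1, -0.57 between Bcl6 and Cux2, -0.36 between Socs2 and Bcl6, and 0.34 between Igf1 and Cux2. Cish had an r of 0.18 with Socs2, 0.04 with Cux2 and -0.14 with Igf1. These 12 points come from 4 groups and share any difference between them, and the values are given as a description.

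WT non-tumour 2 stood apart in its group. It held the lowest value of 9 of the 10 genes, Cish being the exception. For Elovl3 it had 4.26 TPM, against 193 and 90.6 TPM in the other WT non-tumours. Its macrophage and endothelial markers were also the lowest of its group, at a summed 148 and 53.95 TPM, against 299 to 469 and 93.8 to 102 TPM in the others. The hepatocyte and stellate cell sums were lowest there too and the cholangiocyte sum was highest, at 109 TPM. Their part in its low values was not tested.

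Hsd3b5, a steroid dehydrogenase of male mouse liver (ENSMUSG00000038092, chr3:98618634-98630252), was among the genes with the widest range, from 0.0699 TPM in a GKO tumour to 204 TPM in a WT normal liver. It was at 105, 24.0 and 89.2 TPM in GKO non-tumours and at 0.0699, 17.3 and 2.75 TPM in GKO tumours. Its log2 fold change of -3.89 ± 1.01 passed the test narrowly (adjusted p = 0.0484), with 1 read in GKO tumour 1, and did not pass with a pseudocount of 0.1 (adjusted p = 0.0773). WT non-tumours had 10.4, 2.61 and 81.0 TPM and WT tumours 4.30, 3.07 and 0.658 TPM, which overlapped. Normal livers had 148, 204 and 14.2 TPM in WT mice and 145, 181.1 and 42.8 TPM in GKO mice.

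Cyp2d9, a cytochrome P450 that hydroxylates testosterone and the most abundant of the 10 per length (ENSMUSG00000068086, chr15:82433437-82456845), fell in GKO tumours. It was at 1627, 1212 and 1522 TPM in GKO non-tumours and at 374, 427 and 558 TPM in GKO tumours (-1.69 ± 0.26, adjusted p = 0.0115). In WT mice, non-tumours had 622, 537 and 1387 TPM and tumours 438, 414 and 1113 TPM, with overlap. Its values may hold reads of near-identical Cyp2d genes, so they are uncertain.

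Elovl3, a fatty acid elongase that is higher in males and cycles over the day (ENSMUSG00000038754, chr19:46131897-46135694), had its lowest group means in the tumours of both genotypes. It was at 127, 400.4 and 151 TPM in GKO non-tumours and at 0.435, 27.0 and 1.88 TPM in GKO tumours (-5.35 ± 1.04, adjusted p = 0.022). In WT mice it was at 193, 4.26 and 90.6 TPM in non-tumours and at 2.43, 2.28 and 1.06 TPM in tumours. These did not overlap, and the log2 fold change of -3.99 ± 1.23 did not pass the test (adjusted p = 0.141). This fold change passed in 2 of 14 alternatives, without WT non-tumour 2 (-5.55, adjusted p = 0.00427) and in one fit of all 18 samples (adjusted p = 0.032). In the other 12 it did not pass, as without WT non-tumour 1 (-2.94, adjusted p = 0.321) or without WT non-tumour 3 (-3.49, adjusted p = 0.352). Normal livers had 405, 258 and 157 TPM in WT mice and 198, 463 and 123 TPM in GKO mice.

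Counted over the axis, 1 gene passed the test between tumours and non-tumour livers in WT mice and 4 did in GKO mice, all lower in tumours. In WT mice, 9 genes were tested, all 9 had a negative log2 fold change, and 1, Igf1, passed the test. Over all 14003 genes tested, 2.07% passed in this direction. Ghr, Igf1 and Elovl3 were lower in WT tumours without overlap, where 13.9% of all genes were. In GKO mice, 9 of 10 had a negative log2 fold change, Cish being the exception at 0.51, and Igf1, Hsd3b5, Cyp2d9 and Elovl3 passed the test. Here 3.97% of the 14092 genes tested passed in this direction. Ghr, Igf1, Bcl6, Hsd3b5, Cyp2d9 and Elovl3 did not overlap, where 12.7% of all genes were lower without overlap. The median log2 fold change of the axis was -1.46 in WT mice and -0.98 in GKO mice, against -0.02 and 0.20 over all genes.

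**Figure D3:**
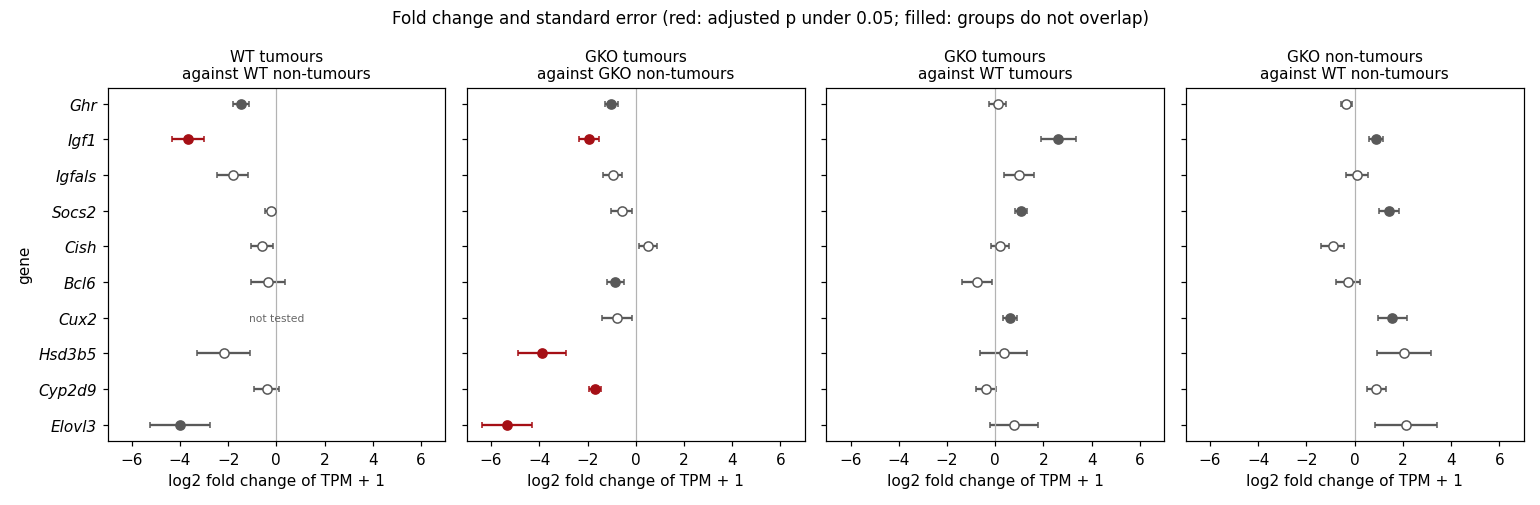
Log2 fold change of TPM + 1 (horizontal axis) with its standard error for each gene (vertical axis) in 4 comparisons, red where the adjusted p was under 0.05 and filled where the groups of 3 did not overlap. Igf1 is red in both tumour comparisons, at -3.67 and -1.92, and no gene is red between genotypes.

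Each of these calls was lost on leaving out at least 1 sample, and so were many calls over all genes. In GKO mice 1652 genes were called, against 229 without GKO non-tumour 3 and 619 without GKO non-tumour 2. In WT mice 592 were called, against 163 to 214 without WT non-tumour 1 or 3 or WT tumour 1 or 2. The call of Igf1 in WT mice was lost without WT non-tumour 1 or 3, without WT tumour 1 or 2, with WT tumours 1 and 2 averaged and with no filter on low values, at adjusted p of 0.0829 to 0.128 and log2 fold changes of -3.27 to -3.67. In GKO mice, none of the 4 calls was kept without GKO non-tumour 3, when the adjusted p was 0.117 for Igf1, 0.158 for Hsd3b5, 0.0626 for Cyp2d9 and 0.0738 for Elovl3. Without GKO non-tumour 2, Cyp2d9 alone passed (0.0808 for Igf1, 0.067 for Hsd3b5 and 0.0704 for Elovl3). Igf1 and Hsd3b5 were also lost without GKO tumour 1 (0.0679 and 0.0855), Igf1 without GKO tumour 2 (0.0665), Elovl3 and Hsd3b5 without GKO tumour 3 (0.0811 and 0.134), and Hsd3b5 without GKO non-tumour 1 (0.0986).

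Between genotypes no gene of the axis passed the test. In tumours, limma called 0 of 10, with 2 at an unadjusted p under 0.05 (Igf1 and Socs2, where 8.87% of all genes were) and 0 called by voom, the test on recovered reads. Over all 13964 genes, 0.0215% were called. Igf1, Socs2 and Cux2 were higher in GKO tumours without overlap, where 9.88% of all genes were. In non-tumour livers 0 of 10 were called, as were 0% of 13768 genes, with 3 axis genes at an unadjusted p under 0.05 (5.8% of all genes) and 0 called by voom. The same Igf1, Socs2 and Cux2 were higher in GKO non-tumours without overlap, where 3.88% of all genes were. The log2 differences of the other 7 genes ran from -0.77 (Bcl6) to 0.97 (Igfals) in tumours and from -0.91 (Cish) to 2.13 (Elovl3) in non-tumours.

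In normal livers the genotypes overlapped for all 10 genes, where 7.95% of all 13099 genes did not overlap. Limma called 0 of 10 (0% of all genes), with 0 at an unadjusted p under 0.05 and 0 called by voom, and log2 differences ran from -0.64 (Cux2) to 1.02 (Cish).

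Whether the genotype difference itself differed between tumours and non-tumour livers was tested as an interaction. Limma called 0 of 10 axis genes and 0.0142% of 14106 genes, with 0 axis genes at an unadjusted p under 0.05 and 0 called by voom. For Igf1 the interaction was 1.75 ± 0.85 (adjusted p = 0.479), and the 10 genes ran from -1.70 (Hsd3b5) to 1.75.

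DEN-treated non-tumour livers were compared with untreated normal livers within each genotype. In WT mice, limma called 0 of 10 (0.00744% of 13440 genes), with 3 at an unadjusted p under 0.05 and 0 called by voom. Of the 3, Igf1 and Socs2 were lower and Cish was higher, and 24.4% of all genes were at that level. Igf1 and Socs2 were lower in WT non-tumours without overlap, where 2.90% of all genes were. In GKO mice, limma called 0 of 10 (0% of 13530 genes), with 1 at an unadjusted p under 0.05, Cux2 (5.2% of all genes), and 0 called by voom. Cux2 was higher in GKO non-tumours without overlap, where 7.12% of all genes were. The comparisons of non-tumour livers share samples with those of tumours, so a high or low non-tumour sample enters both.

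None of the signalling genes between receptor and targets passed the test. Of a list of 14 genes of receptor signalling, limma and voom called 0 in each of the 8 tests. Between WT non-tumours and WT normal livers, 6 were at an unadjusted p under 0.05 in limma, where 24.4% of all genes were. In the other tests 0 to 3 were, where 3.96% to 31.7% of all genes were. Jak2, the kinase bound to the receptor, was at 3.21, 5.32 and 6.61 TPM in GKO tumours and 2.72, 2.13 and 2.59 TPM in GKO non-tumours (0.76 ± 0.26, adjusted p = 0.0961). WT tumours had 3.13, 2.78 and 3.04 TPM, all under the GKO tumours (0.56 ± 0.26, adjusted p = 0.581). WT non-tumours had 2.95, 3.94 and 3.54 TPM, all above the GKO non-tumours (-0.36 ± 0.18, adjusted p = 0.643). The interaction for Jak2 was 0.92 ± 0.31 (adjusted p = 0.434). Stat5b, the main STAT5 of liver, was at 8.06, 8.57 and 18.45 TPM in WT tumours and 15.1, 19.4 and 12.2 TPM in WT non-tumours, with overlap. GKO tumours had 8.11, 10.04 and 15.8 TPM of Stat5b. Stat5a lay between 1.70 and 5.03 TPM in all 18 samples. Phosphorylation was not measured.

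The wider set of sex-biased liver genes was read from lists of 15 male-biased and 26 female-biased genes, also chosen with earlier results known. In GKO tumours, 8 of 15 male-biased genes fell, where 3.97% of all genes did, and 0 rose, with a median log2 fold change of -3.36 against 0.20 over all genes. Slco1a1, a steroid and bile acid transporter, fell from 64.9, 46.4 and 70.6 TPM to 0.410, 13.0 and 1.82 TPM (-3.99 ± 0.75, adjusted p = 0.0202). Mup11 (-6.24 ± 1.60, adjusted p = 0.0469) and Mup3 (-3.89 ± 0.72, adjusted p = 0.0196), major urinary proteins that carry pheromones, fell with it. In WT tumours 2 of 15 fell, where 2.07% of all genes did, and 0 rose, with a median of -2.26 against -0.02. These were Cyp4a12b, a fatty acid hydroxylase (17.6, 69.2 and 53.3 TPM in non-tumours, 1.31, 1.12 and 0.615 TPM in tumours, adjusted p = 0.00613), and Mup20, the pheromone darcin (7884, 16087 and 8204 TPM against 1534, 1509 and 1538 TPM, adjusted p = 0.00821). Mup and Cyp4a12 genes have near-identical copies, so the split of reads between copies is uncertain.

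**Figure D4:**
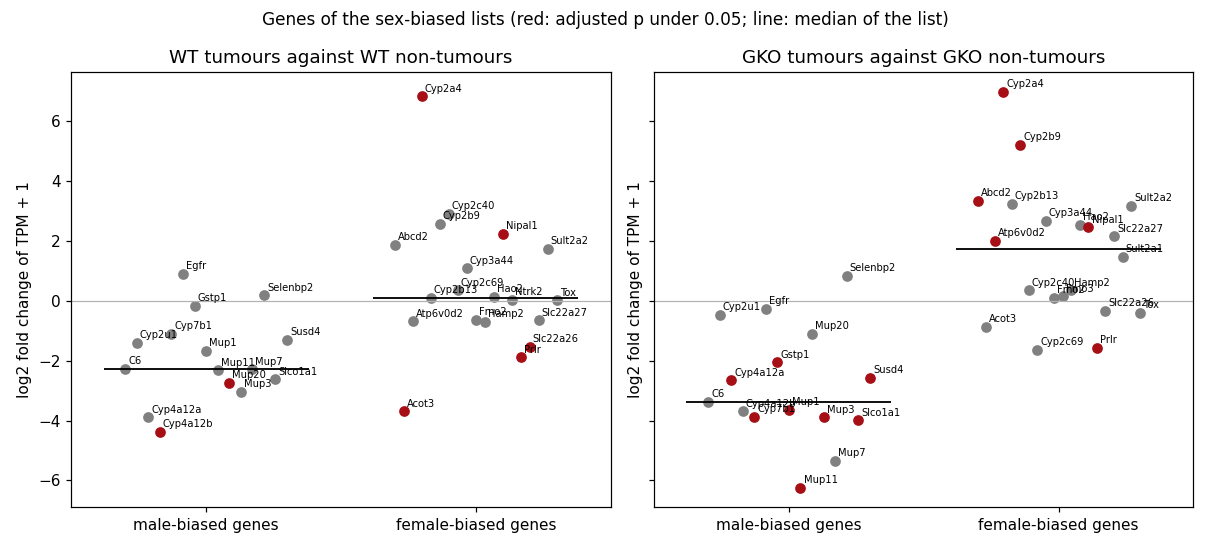
Log2 fold change of TPM + 1 (vertical axis) of each tested male-biased and female-biased gene in the comparison of tumours with non-tumours, in WT mice (left) and GKO mice (right), red where the adjusted p was under 0.05, with a line at the median of the list. The male-biased medians lie at -2.26 and -3.36 and the female-biased medians at 0.10 and 1.74.

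Female-biased genes moved both ways. In GKO tumours 5 of 20 tested rose, where 7.75% of all genes did, and 1 fell, where 3.97% did, with a median of 1.74 against 0.20 over all genes. Cyp2a4, a steroid hydroxylase, went from 45.3, 24.4 and 25.5 TPM to 11422, 2899 and 1942 TPM (6.99 ± 0.64, adjusted p = 0.00406). Cyp2b9, another P450, went from 5.58, 5.92 and 1.39 TPM to 320, 112 and 154 TPM (5.22 ± 0.52, adjusted p = 0.00499), and Abcd2, a peroxisomal fatty acid transporter, from 2.94, 4.51 and 2.25 TPM to 29.0, 49.4 and 47.5 TPM (3.34 ± 0.30, adjusted p = 0.00406). In WT tumours 2 of 19 tested rose, Cyp2a4 (6.84 ± 1.02, adjusted p = 0.017) and Nipal1, a magnesium transporter family gene (2.24 ± 0.39, adjusted p = 0.0279), while 3 fell, with a median of 0.10 against -0.02. Over all genes tested in WT mice 2.16% rose and 2.07% fell. The 3 were Acot3 (-3.69 ± 0.42), Prlr (-1.88 ± 0.28) and Slc22a26 (-1.54 ± 0.22), at adjusted p of 0.00613 to 0.0163. Prlr, the prolactin receptor and a relative of Ghr, fell in GKO tumours as well, from 13.3, 12.7 and 18.1 TPM to 3.73, 3.28 and 6.16 TPM (-1.56 ± 0.27, adjusted p = 0.0152). Cyp2a4 has a near-identical neighbour in Cyp2a5, so its reads are uncertain.

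Between genotypes, limma and voom called 0 genes of either sex-biased list in tumours, non-tumours or normal livers. In tumours 2 of 14 male-biased and 4 of 19 female-biased genes tested were at an unadjusted p under 0.05 in limma (8.87% of all genes). In non-tumours 2 of 15 and 5 of 17 were (5.8%), and in normal livers 0 of 15 and 1 of 13 (3.96%). In non-tumour livers all 15 male-biased genes had a higher fitted value in GKO mice, with a median of 1.25 against -0.15 over all genes. Of the 15, 2 were at an unadjusted p under 0.05 in limma. Their summed level overlapped between genotypes, at 27176 to 52438 TPM in GKO non-tumours and 21484 to 31688 TPM in WT non-tumours. The genes were read in the same 6 samples, so they are not separate observations.

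Markers of other cells moved beside these falls, and are read against the same 7.75% of all genes called higher and 3.97% called lower in GKO tumours, and 2.16% and 2.07% in WT tumours. In GKO tumours, 5 of 10 stellate cell and fibroblast markers rose, led by Col1a1 (4.33 ± 0.38, adjusted p = 0.00406), and Dcn fell. Of the 10, 6 were fitted higher and 4 lower, and their summed level was 104 to 197 TPM against 58.0 to 85.8 TPM in GKO non-tumours. Cholangiocyte markers summed to 96.7 to 1040 TPM in GKO tumours, against 32.7 to 57.4 TPM in GKO non-tumours. All 6 tested were fitted higher, and Krt23 alone passed (3.51 ± 0.59, adjusted p = 0.0148). In WT tumours, cholangiocyte markers summed to 92.3 to 170 TPM, against 37.7 to 109 TPM. Of 6 tested, 3 were fitted higher and 3 lower, and Tspan8 alone passed (4.34 ± 0.60, adjusted p = 0.013). Tspan8 went from 0.787, 1.80 and 0.842 TPM to 24.2, 25.4 and 115 TPM, and is part of the sum. Macrophage markers summed to 90.0 to 168 TPM in WT tumours, against 148 to 469 TPM. All 8 were fitted lower, with 0 called and 0 at an unadjusted p under 0.05 in limma. In WT tumours 1 of 10 stellate cell and fibroblast markers, Rgs5, fell, at a summed 55.0 to 98.8 TPM against 48.8 to 72.7 TPM. Of these 10, 6 were fitted higher and 4 lower. Of the endothelial markers, 2 of 8, Pecam1 and Cdh5, rose in GKO tumours (summed 84.8 to 135 TPM against 99.9 to 115 TPM). Of these 8, 4 were fitted higher and 4 lower (median 0.11 against 0.20 over all genes). In WT tumours 0 of 7 passed (91.0 to 123 TPM against 53.95 to 102 TPM), with 6 fitted higher and 1 lower. Of 8 macrophage markers, 3 were fitted higher and 5 lower in GKO tumours, at a summed 95.9 to 284 TPM against 136 to 789 TPM. Marco alone passed, falling from 84.5, 8.69 and 13.1 TPM to 0.787, 3.49 and 0.696 TPM. Of 9 hepatocyte markers tested, 2 rose in WT tumours, Alb and Ahsg, with 5 of the 9 fitted higher and 4 lower (median 0.15). In GKO tumours 4 of 9 rose, Alb and Ahsg among them, with 6 fitted higher and 3 lower (median 0.47), and 0 fell in either genotype. Alb went from 39487 ± 1591 to 105579 ± 21322 TPM (SD, n = 3) in WT mice and from 28032 ± 5812 to 112045 ± 24319 TPM in GKO mice. No marker of these lists was at 0 in all samples of a tumour or non-tumour group, and the part of these shifts in the falls of the axis genes was not tested.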

How the data were processed

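Groups follow genotype and tissue as labelled. The authors aligned reads to mm10 (STAR 2.7.3a), assigned them to genes (featureCounts 2.0.0) and deposited TPM values, which sum to 1000000 in each sample. The annotation they counted with is not given in the sources used here. Gene positions come from GENCODE release 21 for mouse, where 54809 of 54838 identifiers were found. TPM times exonic length gave whole reads, within 0.02, for 97.95% to 98.67% of values up to 30 reads. No 2 samples were identical, and 0 columns lacked a sample.

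The 10 genes and the lists beside them were chosen with earlier results of these data known. Differences were tested with limma 3.58.1 (lmFit and eBayes with trend, R 4.3.3) on log2(TPM + 1), which understates changes of low genes, leaving out genes whose mean was under 0.5 TPM, adjusted by Benjamini-Hochberg over all of them and called under 0.05. With 3 samples against 3, an exact permutation test of one gene could not go under 0.1, so none was used. The fold change of an axis gene was printed where it passed or its groups did not overlap, and otherwise as part of a range. From each list up to 3 called genes in each direction were named, with the largest fold changes, plus Jak2, Stat5a and Stat5b. Some results are not reported here. The script was tested on simulated data. Alternatives were another pseudocount (0.1), no filter or one at a mean of 5 TPM, median centring, all 18 samples in one fit, voom on recovered reads, the replicate number as a block, leaving out each sample, and averaging WT tumours 1 and 2.

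Deviations from the group mean of samples with the same number had r of 0.101, 0.12 and 0.197 for GKO and WT tumours. For GKO tumours and GKO non-tumours r was 0.124, 0.069 and 0.041, and each other comparison held r of both signs, from -0.315 to 0.249. With the replicate number as a block, 0 axis genes were called between GKO and WT tumours, as without it. Figures used Python 3.11.15 and matplotlib 3.10.9.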

Additional observations from a re-analysis of the deposited data

How the results depend on the processing

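Of the 19 log2 fold changes given for single axis genes, none changed direction in 254 recomputed values. The side of the threshold stayed the same in 219, was lost in 24 and gained in 11. Between GKO and WT tumours, the axis genes called went from 0 to 1 (Igf1) with all 18 samples in one fit, and ranged from 0 to 1 on leaving out a sample, the 1 arising without WT tumour 3. Between WT tumours and non-tumours, 1 was called, against 0 with no filter on low values, 0 with WT tumours 1 and 2 averaged, 4 with all 18 samples in one fit, and 0 to 3 on leaving out a sample. Between GKO tumours and non-tumours, 4 were called, against 1 with no filter, 3 with a pseudocount of 0.1 (Hsd3b5 lost) and 0 to 3 on leaving out a sample, and 5 including Ghr with a filter at 5 TPM, with median centring, with all 18 samples and with voom. Over all genes, 592 were called in WT mice (163 to 1649 under the alternatives) and 1652 in GKO mice (229 to 2722). Fewer samples or more genes tested are part of the construction of these alternatives, and other causes were not tested. With the replicate number as a block, 3 axis genes were called between GKO tumours and non-tumours, with Hsd3b5 lost (adjusted p = 0.0735), and 1 between WT tumours and non-tumours, and the block changed no other call of an axis gene. The labels tie these samples by number only, and whether samples with the same number come from the same mouse is not given. Depth limited Cux2, Hsd3b5, Cish and Elovl3, with as few as 0, 1, 5 and 8 reads in a sample, and a gene at 0 reads may hold up to 3.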

Other observations

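Genes whose values followed each axis gene most closely over the 18 samples were read by Pearson's r of log2(TPM + 1), as a description in which tumours and livers form separate clusters. Hsd3b5 was nearest to Slco1a1 (r = 0.961) and Nxpe2 (0.951), and Elovl3 to Slc1a2 (0.966) and Slco1a1 (0.965). Without the tumours, over 12 livers, the r of Hsd3b5 with Slco1a1 was 0.914 and that of Elovl3 was 0.843. Igf1 was nearest to Cyp4f15 (0.954) and Ephx2 (0.945), which went to 0.209 and 0.501 without the tumours. Ghr was nearest to Scp2 (0.953, and 0.782 without the tumours) and Nat8f2 (0.929, and 0.41), and Igfals to Il1rap (0.938, and 0.486). Cyp2d9 was nearest to Cyp2d10 (0.889), a related gene, and Nfkbia (0.883), at 0.795 and 0.785 without the tumours. The r over all samples was 0.815 and 0.797 for Socs2 (AC154912.1 and Atp6v0b), 0.773 for Cish (Foxa2 and Prrc2a), 0.759 and 0.737 for Bcl6 (Cyp2d40 and Inhbc) and 0.764 and 0.706 for Cux2 (Cdip1 and Gm16573). Without the tumours these were 0.815 and 0.87 for Socs2, 0.863 and 0.781 for Cish, 0.611 and 0.87 for Bcl6, and 0.894 and 0.758 for Cux2.

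Genes of the circadian clock, which cycle over the day as Elovl3 does, were read as a list of 15. Limma and voom called 0 of them in each of the 8 tests, with 10 at an unadjusted p under 0.05 between GKO and WT tumours (8.87% of all genes), where the median log2 difference was 1.01 against 0.09 over all genes. Their summed level was 286 to 566 TPM in GKO tumours and 165 to 232 TPM in WT tumours, while non-tumour livers ranged from 95.0 to 330 TPM. The times of day at which tissues were taken are not given in the labels.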
